A study of Homo sapiens with 6 samples.

Results

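NRF2, glutathione and thioredoxin antioxidant genes were examined in the BT-549 line, which comes from a triple negative breast cancer. The set holds 38 genes, chosen by symbol for their place in the NRF2 pathway, the glutathione and thioredoxin systems and the defence against ferroptosis, out of 63140 genes listed in the deposited tables. All 38 matched a gene in those tables and 37 passed the filter on low counts. The exception was MGST2, a microsomal glutathione transferase, which had 1 read in one ACM library, 1 read in one UCM library and none in the other 4 libraries.

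RNA-seq of polyA RNA covered 6 libraries of wild-type cells, 3 grown for 24 h in adipocyte-conditioned medium (ACM) and 3 in unconditioned medium (UCM), and the comparison asks what the adipocyte secretions change in these cells. All cells had been kept in RPMI-1640 with 10% fetal bovine serum and 0.8 µg/mL insulin. In the study's methods ACM is a medium with insulin, oleate and albumin that had been conditioned on differentiating OP9 mouse cells, while the formula of UCM is not stated. Any effect of the base medium, serum, oleate or insulin therefore cannot be told apart from that of the secretions. The labels give 50% ACM for the treated wells, which differs from the undiluted medium of the supplement. The study's methods describe 3 replicates per condition, with cells seeded in a 6-well plate and lysed there. Neither the methods nor the labels say that the 3 replicates of a group came from separate cultures. The p-values therefore measure the spread between these samples, which may be technical.

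NRF2 (encoded by NFE2L2) is a transcription factor that KEAP1 holds in the cytoplasm and hands to the proteasome. Oxidants and electrophiles modify KEAP1, and NRF2 then enters the nucleus, pairs with small MAF proteins and binds antioxidant response elements in front of genes for glutathione synthesis, thioredoxin reduction and detoxification. Glutathione and thioredoxin are the main thiol reductants of the cell, and glutathione peroxidases, peroxiredoxins and catalase use them or act beside them to remove peroxides that arise from superoxide. Most of the control of NRF2 is at the protein level, which RNA-seq does not measure.

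Promoters of 4 of the genes are shown because they carry the letters of a regulatory element. These 4 were chosen after their values were seen, and whether the elements act in these cells was not tested. Each is the run of 250 bases before a RefSeq transcription start (GRCh38.p14), 5′ to 3′ on the strand of the gene, and capitals mark the match. CHAC1 (chr15:40953221-40953470, plus strand) holds a match to the amino acid response element, to which ATF4 and C/EBP factors bind, and is shown because CHAC1 rose. TXNRD1 (chr12:104215529-104215778, plus strand), GCLM (chr1:93909431-93909680, minus strand) and GSTP1 (chr11:67583562-67583811, plus strand) hold the core of the antioxidant response element and are shown because they are known NRF2 targets that were not called.
CHAC1: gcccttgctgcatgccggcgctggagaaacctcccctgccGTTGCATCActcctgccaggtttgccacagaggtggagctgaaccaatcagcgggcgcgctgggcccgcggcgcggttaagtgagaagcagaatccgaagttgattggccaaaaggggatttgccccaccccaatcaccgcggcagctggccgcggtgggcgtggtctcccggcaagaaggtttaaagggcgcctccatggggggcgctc
TXNRD1: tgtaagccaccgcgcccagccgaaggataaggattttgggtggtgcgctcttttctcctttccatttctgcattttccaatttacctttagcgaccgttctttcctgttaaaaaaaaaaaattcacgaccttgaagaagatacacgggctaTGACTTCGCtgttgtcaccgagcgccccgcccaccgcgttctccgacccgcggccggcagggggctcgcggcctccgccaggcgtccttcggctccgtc
GCLM: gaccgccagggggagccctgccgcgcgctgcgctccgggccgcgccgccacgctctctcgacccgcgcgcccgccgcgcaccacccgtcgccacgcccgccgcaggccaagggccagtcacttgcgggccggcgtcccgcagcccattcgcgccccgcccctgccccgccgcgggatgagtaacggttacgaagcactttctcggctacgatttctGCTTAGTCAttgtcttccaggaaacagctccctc
GSTP1: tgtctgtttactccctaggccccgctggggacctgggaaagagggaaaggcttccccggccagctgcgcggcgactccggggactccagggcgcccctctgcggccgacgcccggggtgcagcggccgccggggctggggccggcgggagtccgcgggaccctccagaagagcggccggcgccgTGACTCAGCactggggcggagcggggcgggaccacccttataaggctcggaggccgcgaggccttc

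The match in CHAC1 lies on the opposite strand and starts 210 bases before the transcription start. In TXNRD1 the match starts 99 bases before the start, in GSTP1 66 bases before it and in GCLM, on the opposite strand, 34 bases before it. The window of CHAC1 lies inside the longer gene span that GENCODE 44 gives, and those of GSTP1 and GCLM run into the start of the GENCODE gene, with the match of GSTP1 inside it. The letters searched were TGACNNNGC for the antioxidant response element core and TGATGNAAN for the amino acid response element, on both strands. The core in GSTP1 also contains TGACTCA, the letters of an AP-1 site, so the 2 motifs overlap there. Promoter windows were given for 30 of the 38 genes, 46 windows in all, some genes having several starts. The antioxidant core was present for 6 of these 30 genes, namely AIFM2, GCLM, GSTO1, GSTP1, KEAP1 and TXNRD1. By window it was in 7 of the 46, beside 3830 of the 35116 windows of all genes (10.9%). The amino acid element was present for 2 of the 30, CHAC1 and GPX8. By window it was in 2 of the 46, beside 1100 of the 35116 (3.13%). A match is a description of the letters and not a site of binding. By edgeR none of the 6 genes with the antioxidant core was called, and of the pair with the amino acid element CHAC1 was called and GPX8 was not. Among the other pathway genes described below, 77 had windows, 106 windows in all. The antioxidant core was present for 19 of these genes, in 19 of the 106 windows, among them MAFF, which was called higher. The amino acid element was present for 1, GSTCD, which was not called.

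Library totals ran from 17135288 to 21053257 expected counts. The labels call BT-549 epithelial, but the 8 epithelial markers examined summed to 47 to 60 counts per library in ACM and 53 to 64 in UCM, ESRP1 was at 0 in all libraries, and EPCAM had 2 counts in a single library. By contrast 5 mesenchymal markers, among them VIM and FN1, summed to 114229 to 125367 counts in ACM and 102788 to 119930 in UCM. The 8 adipocyte markers summed to 289 to 303 counts in ACM and 227 to 242 in UCM, mostly PPARG, with ADIPOQ, LEP and CIDEC at 0 in every library. The 5 immune markers summed to 269 to 526 counts in ACM and 101 to 148 in UCM, nearly all CD68, with CD3E and LYZ at 0. CD68, a lysosomal protein of macrophages, had a log2 FC of 1.76 (adjusted p = 0.0335, edgeR) and was called in 10 of 14 alternatives. Among the lost calls were those without UCM replicate 1, 2 or 3 (adjusted p up to 0.160, edgeR). Of the adipocyte markers CFD, an adipokine, had 2.38, 2.08 and 2.99 CPM in ACM against 1.42, 1.34 and 1.92 in UCM, without overlap, and a log2 FC of 0.67 (adjusted p = 0.196, edgeR). The part of these markers in the results on antioxidant genes was not tested.

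Of the 37 antioxidant genes tested, 2 were higher in ACM and 0 were lower with the adjusted p-value no greater than 0.05 (edgeR quasi-likelihood test, Benjamini-Hochberg over 14451 genes). The 2 genes were CHAC1, which degrades glutathione, and GPX1, a peroxidase that spends it. These changes are relative to the other RNA of each library. A change in the RNA content of the cells was not measured, so amounts per cell cannot be read from them. Among all genes tested 3.35% were higher and 2.21% lower by the same rule, against 5.41% and 0% of the antioxidant genes. By this edgeR rule the share called was near the background. With an unadjusted p-value at or below 0.05 (edgeR), 8 were higher (21.6%) and 5 were lower (13.5%), where all genes gave 11.9% and 11.5%. The share higher was thus above that of all genes by this looser rule. With a log2 fold change (log2 FC) of at least 0.58 required as well, 3 of the 37 were higher, CHAC1, GPX3 and SOD2. None was lower, and all genes gave 4.12% and 1.71%. DESeq2, the tool named in the study's methods, called 5 of the 37 genes higher at the adjusted p-value, adding SOD2, PRDX5 and NFE2L1, and 0 lower. Over all 14451 genes DESeq2 called 764 higher and 447 lower, more than the 484 and 320 of edgeR. With DESeq2 the share called higher was therefore larger among the 37 genes than among all genes.

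Values in CPM (expected counts scaled to the TMM-adjusted library size) did not overlap between the groups for 10 genes. All 3 ACM libraries lay above all 3 UCM libraries for 6 of them (NFE2L1, CHAC1, GPX1, GPX3, PRDX5 and SOD2). These were 16.2% of the antioxidant genes tested, where 13.9% of all genes tested did so. The ACM libraries lay below for 4 (GSS, CHAC2, TXN and PRDX1), which is 10.8%, where the background was 15.1%. The log2 FC was positive for 27 genes (73.0%) and negative for 10, with a median of 0.07, beside a median of -0.01 over all genes, of which 6954 (48.1%) were positive and 7497 negative.

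**Figure D1:**
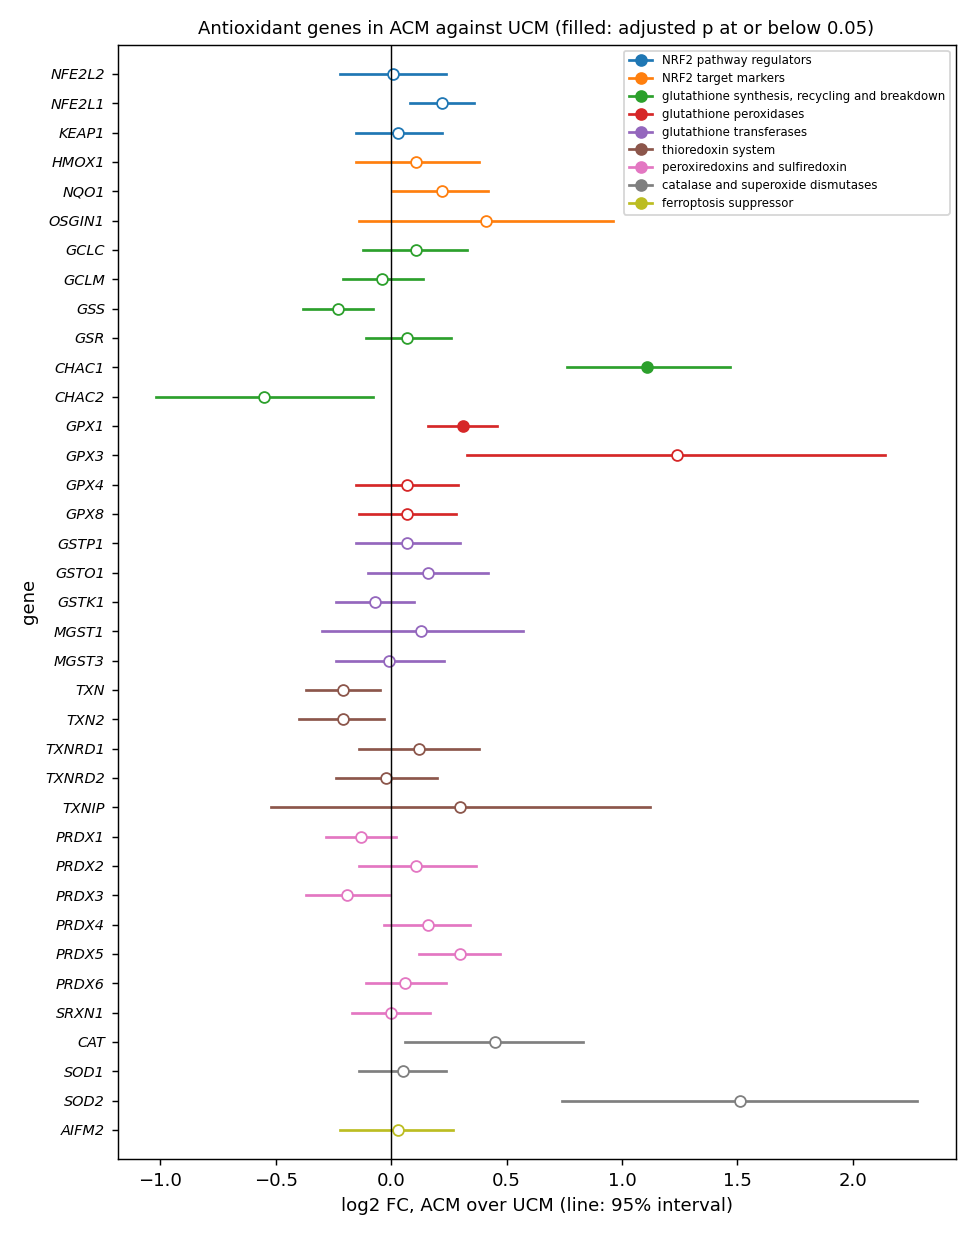
Each point is the log2 FC of ACM over UCM for one of the 37 antioxidant genes tested, coloured by role, and each line its 95% confidence interval. CHAC1 at 1.11 and GPX1 at 0.31 are filled because they passed the adjusted threshold, while SOD2 at 1.51 and GPX3 at 1.24 lie further out with wide intervals.

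NFE2L2 itself showed no difference beyond the spread of its libraries. Its CPM was 63.9, 82.6 and 81.0 in ACM and 70.3, 79.1 and 76.4 in UCM, so the groups overlapped fully. The log2 FC was 0.01 with a standard error (SE) of 0.10 and a 95% interval from -0.22 to 0.24. KEAP1, the adaptor that targets NRF2 for degradation, had 117, 127 and 139 CPM in ACM and 113, 131 and 130 in UCM, a log2 FC of 0.03 with an interval from -0.15 to 0.22. NFE2L1, a related factor of the endoplasmic reticulum that is best known for inducing proteasome genes, had 242, 254 and 233 CPM in ACM and 206, 208 and 213 in UCM. No ACM library overlapped with UCM, and the log2 FC was 0.22 (SE 0.06, adjusted p = 0.0730, edgeR). Of the 3 regulators 0 were called by edgeR, 1 was higher at an unadjusted p-value of 0.05 or less, and DESeq2 called NFE2L1 (log2 FC 0.23, adjusted p = 0.0314). Reads of NFE2L2 had been shared with other genes, since its expected counts were not whole numbers in all 6 libraries, and its exons overlap HNRNPA3 and AGPS on the opposite strand.

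The 3 marker genes of NRF2 activity had positive values, with a median log2 FC of 0.22, and 0 passed the test in edgeR or DESeq2, 1 being higher at an unadjusted p-value of 0.05 or less in edgeR. NQO1, a quinone reductase, had 499, 652 and 563 CPM in ACM and 482, 504 and 489 in UCM, with a log2 FC of 0.22 (SE 0.09, adjusted p = 0.191, edgeR). Replicate 1 of ACM lay between replicates of UCM, and replicate 2 was the highest library. HMOX1, which breaks down heme, had 323, 444 and 329 CPM in ACM and 326, 346 and 342 in UCM. Here 2 of the ACM libraries were below replicate 2 of UCM, and the log2 FC was 0.11 (95% interval -0.15 to 0.38). OSGIN1, an oxidative stress induced growth inhibitor, was low, at 2.99, 4.84 and 3.53 CPM in ACM and 2.84, 3.17 and 2.51 in UCM. Its log2 FC was 0.41 with an interval from -0.14 to 0.96. Replicate 2 of ACM was the highest library for each of these 3 genes.

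Other known NRF2 targets are described below with their pathways. GCLC, GCLM, TXNRD1, SRXN1 and PRDX1 had log2 FC of 0.11, -0.04, 0.12, 0.00 and -0.13, in that order, and none was called. For SRXN1, the sulfiredoxin that repairs overoxidised peroxiredoxins, the interval ran from -0.17 to 0.17, and for GCLM from -0.21 to 0.14.

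**Figure D2:**
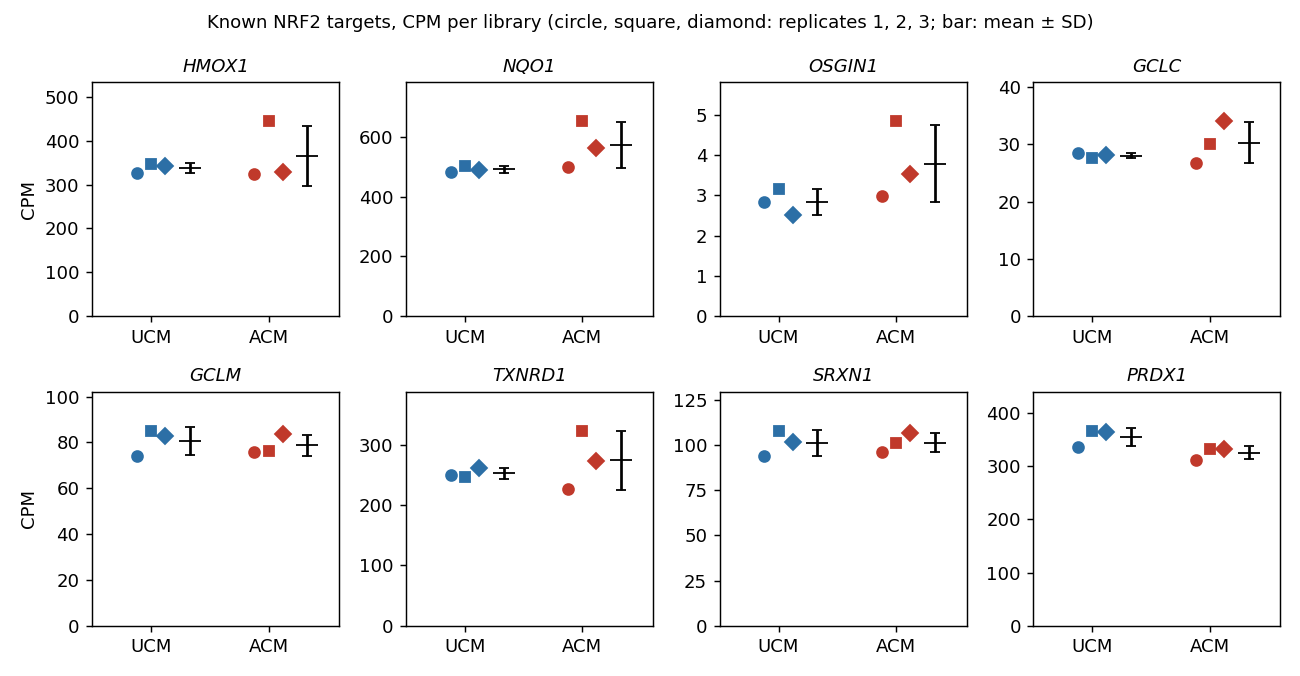
CPM of 8 known NRF2 targets in each library, with UCM in blue and ACM in red, the symbols marking replicates 1, 2 and 3 and the bars the mean ± SD (n = 3). ACM and UCM overlap in 7 panels, and in the remaining one, PRDX1, the ACM libraries at 311 to 333 lie below the UCM libraries at 336 to 367.

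Glutathione is made from glutamate, cysteine and glycine by glutamate-cysteine ligase (a catalytic subunit, GCLC, and a modifier, GCLM) and glutathione synthetase (GSS), kept reduced by GSR and cleaved by CHAC1 and CHAC2. CHAC1 was the gene of the set with the smallest p-value. It had 13.4, 12.7 and 12.9 CPM in ACM, from 282, 226 and 237 reads, and 6.92, 6.34 and 4.72 CPM in UCM, from 146, 118 and 81 reads. The groups were far apart, with 13.0 ± 0.353 CPM in ACM and 5.99 ± 1.14 in UCM (SD, n = 3). CHAC1 (ENSG00000128965, GRCh38 chromosome 15, 40952962 to 40956512, plus strand) rose 2.16-fold, a log2 FC of 1.11 with an SE of 0.16 (adjusted p = 0.00517, edgeR). It was called in 14 of the 14 alternative analyses. CHAC2, its constitutive paralog, lay the other way, at 2.85, 3.15 and 3.37 CPM in ACM and 4.50, 5.32 and 3.85 in UCM. Those groups did not overlap either, but the log2 FC of -0.55 (SE 0.21) had an adjusted p of 0.154 (edgeR).

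The enzymes that build glutathione showed no call. GSS had 104, 96.5 and 92.6 CPM in ACM and 112, 116 and 115 in UCM, a log2 FC of -0.23 (SE 0.07, adjusted p = 0.0809, edgeR), with every ACM library below every UCM library. GCLC had 26.8, 30.0 and 34.0 CPM in ACM and 28.4, 27.6 and 28.1 in UCM, and GCLM 75.8, 76.4 and 83.8 in ACM and 73.9, 85.1 and 83.0 in UCM. For GSR the log2 FC was 0.07 with an interval from -0.11 to 0.26. Of these 6 genes 1 was thus called, and the list was split evenly, with 3 positive and 3 negative values.

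Glutathione peroxidases typically reduce peroxides with glutathione as the electron donor, though not every member does so, and all 4 had positive values. GPX1, the abundant cytosolic selenoenzyme, had 161, 171 and 173 CPM in ACM and 131, 134 and 142 in UCM. Its lowest ACM library lay above its highest UCM library, with means of 168 ± 6.23 and 136 ± 5.84 CPM (SD, n = 3). GPX1 (ENSG00000233276, chromosome 3, 49357174 to 49358605, minus strand) rose 1.24-fold, a log2 FC of 0.31 with an SE of 0.07 (adjusted p = 0.0265, edgeR). It shares exons with a readthrough gene on the same strand (ENSG00000290318), which had 40.7 to 53 CPM per library, and RSEM divides shared reads by estimate. With both genes summed, an alternative chosen after seeing the data, the log2 FC was 0.28 (adjusted p = 0.0354, edgeR). The call of GPX1 was lost on the log2 TPM scale (adjusted p = 0.0532 and 0.0521, limma) and without any one of ACM replicates 2 and 3 or UCM replicates 2 and 3 (adjusted p from 0.0721 to 0.138), while the log2 FC stayed between 0.29 and 0.35.

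GPX3, the secreted plasma peroxidase, was rare, with 23, 39 and 40 reads in ACM and 22, 11 and 11 in UCM. These gave 1.09, 2.20 and 2.17 CPM in ACM and 1.04, 0.591 and 0.641 in UCM, so replicate 1 of ACM and replicate 1 of UCM were nearly equal. The log2 FC was 1.24 (SE 0.41, 95% interval 0.33 to 2.14) with an adjusted p of 0.105 (edgeR). GPX4, which reduces lipid peroxides in membranes and restrains ferroptosis, had 115, 135 and 129 CPM in ACM and 104, 128 and 129 in UCM. Its log2 FC of 0.07 had an interval from -0.15 to 0.29. GPX8, a peroxidase of the endoplasmic reticulum, had the same log2 FC of 0.07 (interval -0.14 to 0.28).

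Glutathione transferases attach glutathione to electrophiles, and 0 of the 5 tested were called by edgeR or DESeq2, 0 also at an unadjusted p-value of 0.05 or less in edgeR. GSTO1 had the largest value, with 62.6, 82.8 and 59.2 CPM in ACM and 60.9, 61.0 and 60.9 in UCM. Replicate 2 of ACM was alone above the rest, and the log2 FC was 0.16 (interval -0.10 to 0.42). GSTP1, the most abundant transferase, had 225, 266 and 255 CPM in ACM and 202, 252 and 255 in UCM, a log2 FC of 0.07. The values of GSTK1, MGST1 and MGST3 were -0.07, 0.13 and -0.01, each with an interval across 0.

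Thioredoxin passes electrons from NADPH, through thioredoxin reductases, to oxidised proteins, and TXNIP binds and inhibits it. TXN, the cytosolic thioredoxin, had 108, 119 and 118 CPM in ACM and 127, 142 and 130 in UCM, every ACM library below every UCM library. Its log2 FC was -0.21 (SE 0.07, adjusted p = 0.119, edgeR). TXN2, the mitochondrial thioredoxin, had 80.8, 74.6 and 87.8 CPM in ACM and 87.1, 97.0 and 98.0 in UCM, with 1 ACM library above the lowest UCM library. The log2 FC was also -0.21 (SE 0.08, adjusted p = 0.151, edgeR). For the reductases TXNRD1 and TXNRD2 it was 0.12 and -0.02, and the CPM of TXNRD1 was 226, 323 and 273 in ACM and 249, 246 and 262 in UCM. TXNIP was low and uneven, with 3.23, 6.48 and 2.23 CPM in ACM and 3.17, 3.76 and 2.74 in UCM. Its log2 FC of 0.30 had an interval from -0.52 to 1.12 and turned to -0.24 without ACM replicate 2. Of the 5 genes 0 were called by edgeR or DESeq2, with 0 higher and 2 lower at an unadjusted p-value of 0.05 or less in edgeR.

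Most peroxiredoxins reduce peroxides with thioredoxin, and the values of the 6 family members differed in sign. PRDX5, which acts in mitochondria, peroxisomes and cytosol, had 120, 130 and 127 CPM in ACM and 92.0, 106 and 109 in UCM, without overlap. The log2 FC was 0.30 with an SE of 0.08, and the adjusted p of 0.0540 (edgeR) was just past the threshold. It was called in 5 of the 14 alternatives, DESeq2 among them (adjusted p = 0.0182). PRDX1, the most abundant peroxiredoxin, had 311, 333 and 333 CPM in ACM and 336, 367 and 364 in UCM. Its log2 FC was -0.13 (SE 0.07, adjusted p = 0.286, edgeR). PRDX3, the mitochondrial form, had 101, 107 and 113 CPM in ACM and 111, 131 and 125 in UCM, a log2 FC of -0.19 (adjusted p = 0.188, edgeR). PRDX2, PRDX4 and PRDX6 had log2 FC of 0.11, 0.16 and 0.06. Of the 7 genes with sulfiredoxin 0 were called by edgeR, 1 was higher and 1 lower at an unadjusted p-value of 0.05 or less, 5 were positive and 2 negative.

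SOD2, the manganese superoxide dismutase of mitochondria and a known target of NF-κB, had the largest log2 FC of the set. Its CPM was 1002, 2117 and 1174 in ACM and 598, 456 and 451 in UCM. Even the lowest ACM library was above the highest UCM library, but ACM replicate 2 was far above the other ACM libraries, and the means were 1431 ± 600 and 502 ± 83.3 (SD, n = 3). SOD2 (ENSG00000291237, chromosome 6, 159669069 to 159762529, minus strand) was 2.85-fold higher, a log2 FC of 1.51 with an SE of 0.31, and its adjusted p of 0.0532 (edgeR) missed the threshold. It was called in 7 of the 14 alternatives. Without ACM replicate 2 the log2 FC was 1.12 and the adjusted p 0.0103, without ACM replicate 1 they were 1.72 and 0.0349, and DESeq2 gave 1.52 and 0.00158. Over the left-out libraries the adjusted p of SOD2 reached 0.202 (edgeR), so its call depended on which libraries were kept. Its exons overlap those of WTAP and ACAT2 on the opposite strand, and whether the counting used strand is not given in the sources used here. Counts of ACAT2 were lower in ACM, at 1006 to 1117 against 2390 to 3301 in UCM, and those of WTAP were 1952 to 2540 and 1550 to 2100.

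The other enzymes for superoxide and hydrogen peroxide had smaller differences. SOD1, the copper and zinc form in the cytosol, had 105, 124 and 118 CPM in ACM and 103, 113 and 120 in UCM, with a log2 FC of 0.05 (interval -0.14 to 0.24). CAT, the peroxisomal catalase, had 37.8, 56.4 and 53.0 CPM in ACM and 29.8 and 40.1 in UCM replicates 1 and 2, with UCM replicate 3 between them. ACM replicate 1 was below 2 of the UCM libraries, and the log2 FC was 0.45 (SE 0.17, adjusted p = 0.158, edgeR). Without that library the log2 FC of CAT was 0.62 with an adjusted p of 0.0304 (edgeR). Over all left-out libraries the log2 FC of CAT went down to 0.34 and the adjusted p up to 0.410 (edgeR). CAT was called in 3 of the 14 alternatives. AIFM2 (FSP1), which recycles ubiquinone against lipid peroxidation, had 26.9, 33.9 and 28.8 CPM in ACM and 26.2, 31.3 and 30.3 in UCM, a log2 FC of 0.03.

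**Figure D3:**
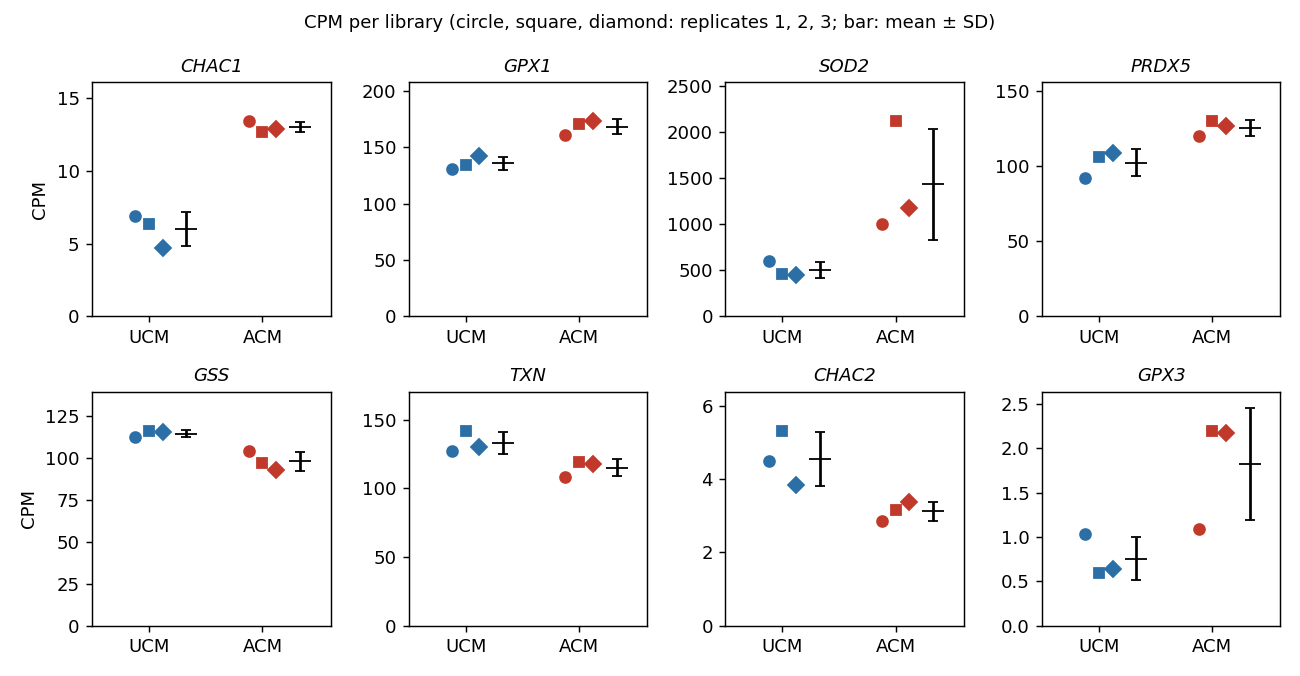
CPM of 8 antioxidant genes in each library, with UCM in blue and ACM in red, the symbols marking replicates 1, 2 and 3 and the bars the mean ± SD (n = 3). All 8 separate the groups, CHAC1, GPX1, SOD2, PRDX5 and GPX3 with ACM above UCM and GSS, TXN and CHAC2 with ACM below, and in SOD2 replicate 2 of ACM stands apart at 2117.

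To compare genes with each other, levels were read as TPM, a share of all transcripts that takes transcript length into account. In UCM the order began with PRDX1 at a mean of 762 TPM, NQO1 at 749, GSTP1 at 733, SOD2 at 497, TXN at 417 and HMOX1 at 389. The first 3 did not differ beyond their spread, since NQO1, PRDX1 and GSTP1 were each the highest gene of one UCM library. In ACM the order was SOD2 at 1281, NQO1 at 851, GSTP1 at 758, PRDX1 at 688 and HMOX1 at 414. SOD2 went from 552, 470 and 467 TPM in UCM to 903, 1842 and 1096 in ACM and was the highest of the 38 genes in each ACM library. It held 6.54% to 8.27% of the summed TPM of the set in UCM and 12.6% to 20.8% in ACM. The sum over the set was 6680, 7153 and 7144 TPM in UCM and 7143, 8874 and 7992 in ACM. Without SOD2 it was 6128 to 6683 in UCM and 6240 to 7031 in ACM. The groups overlapped both with and without SOD2. By mean level 19 genes were above 100 TPM in either medium. CHAC1, at 9.47, 7.25 and 5.56 TPM in UCM and 15.3, 14.2 and 15.3 in ACM, belonged to the low end of the set.

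**Figure D4:**
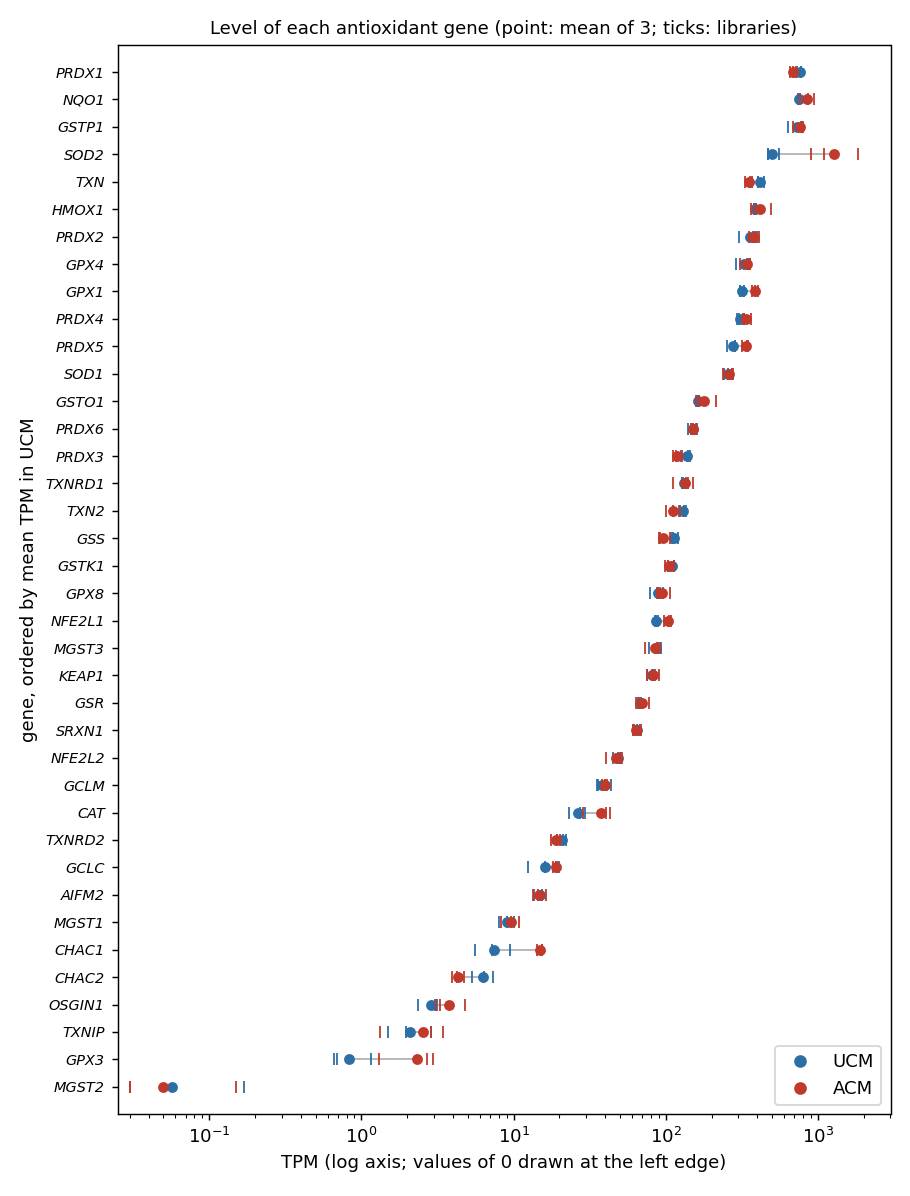
Level of each of the 38 genes in TPM on a log axis, ordered by the mean in UCM, with points for the mean of 3 libraries and ticks for single libraries, UCM in blue and ACM in red. SOD2 moves from a mean of 497 in UCM to 1281 in ACM, while most genes have points that nearly coincide.

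Another 93 genes of the same pathways were listed, of which 92 were found in the tables and 83 were tested. Of these 5 were higher and 2 lower in ACM at the adjusted p-value, 6.02% and 2.41%, beside the 3.35% and 2.21% of all genes given above. Their median log2 FC was -0.01, the same as over all genes, with 41 positive and 42 negative.

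Among 10 partners and regulators of NRF2, MAFF and BACH1 were higher and 0 were lower. MAFF, a small MAF protein that pairs with NRF2, had 30.1, 40.9 and 29.6 CPM in ACM and 19.8, 11.2 and 14.5 in UCM. It rose by a log2 FC of 1.14 (SE 0.22, adjusted p = 0.0304, edgeR), a call kept without UCM replicate 1 and lost without any other single library (adjusted p from 0.0521 to 0.125). MAFF was called in 8 of the 14 alternatives. BACH1, a repressor that competes with NRF2 for the same elements, had 27.4, 37.8 and 31.9 CPM in ACM and 21.8, 21.3 and 20.2 in UCM, with a log2 FC of 0.61 (SE 0.12, adjusted p = 0.0186, edgeR). Its effective length was 819 bases in UCM replicate 2 and 1967 to 4118 in the other libraries, and with effective lengths as offsets the log2 FC was 0.05 (adjusted p = 0.976, edgeR). The call of BACH1 was also lost without ACM replicate 2 or 3 or UCM replicate 2 or 3 (adjusted p from 0.0571 to 0.0778). BACH1 was called in 7 of the 14 alternatives.

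Of 19 other NRF2 targets tested, 2 were higher and 0 lower. SLC7A11, the cystine transporter that supplies cysteine for glutathione and is also a known ATF4 target, had 25.6, 28.7 and 25.9 CPM in ACM and 15.0, 9.25 and 8.75 in UCM. It rose 2.42-fold, a log2 FC of 1.27 (SE 0.19, adjusted p = 0.00915, edgeR), and was called in 14 of 14 alternatives. AKR1B1, the aldose reductase, had 319, 555 and 355 CPM in ACM and 202, 195 and 194 in UCM, a log2 FC of 1.06 (SE 0.21, adjusted p = 0.0401, edgeR). As with SOD2, ACM replicate 2 was the highest, and without it the log2 FC was 0.77 (adjusted p = 0.00207). AKR1B1 was called in 9 of the 14 alternatives. Among the lost calls were those without UCM replicate 1, 2 or 3 (adjusted p = 0.109, 0.169 and 0.151, edgeR). Another was with genes of at least 1 count in total kept (adjusted p = 0.109, edgeR). AKR1C1 and AKR1C3, near-identical relatives between which reads may be divided, had log2 FC of 1.58 and 2.06 with adjusted p of 0.135 and 0.124 (edgeR), and are named here after their values were seen. Both rest on few reads, 15, 38 and 20 in ACM and 16, 4 and 5 in UCM for AKR1C1 and 13, 47 and 11 in ACM and 4, 9 and 4 in UCM for AKR1C3. Without ACM replicate 2 the log2 FC was 1.05 for AKR1C1 and 1.00 for AKR1C3, and over all left-out libraries it reached 2.35 for AKR1C1, without UCM replicate 1 and with an adjusted p of 0.0472, and 2.57 for AKR1C3.

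Among 21 other glutathione genes tested, 0 were higher and GLRX3, an iron-sulfur glutaredoxin, was lower. It had 44.7, 44.2 and 47.8 CPM in ACM and 53.9, 58.8 and 59.1 in UCM and fell by 0.33 on the log2 scale (SE 0.08, adjusted p = 0.0354, edgeR). The call was kept without UCM replicate 1 and lost without any other single library (adjusted p from 0.0531 to 0.177). With effective lengths as offsets the log2 FC of GLRX3 was -0.50, since its effective length was 1002 to 1113 bases in ACM and 851 to 979 in UCM.

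Of 19 other thioredoxin and disulfide genes tested, SESN2 was higher and MSRA lower. SESN2, a sestrin that restrains mTORC1 and is known to be induced by ATF4 and NRF2, had 35.6, 41.7 and 34.2 CPM in ACM and 20.1, 18.9 and 18.3 in UCM. It rose 1.94-fold, a log2 FC of 0.96 with an SE of 0.10 (adjusted p = 0.00188, edgeR), and was called in 14 of 14 alternatives. MSRA, which repairs oxidised methionine, had 9.74, 8.96 and 9.57 CPM in ACM and 13.0, 14.1 and 13.2 in UCM and fell by 0.51 on the log2 scale (SE 0.12, adjusted p = 0.0373, edgeR). That call was kept without UCM replicate 1 and lost without any other single library (adjusted p from 0.0629 to 0.171), and it was lost with effective lengths as offsets (adjusted p = 0.0902) and on log2(TPM + 1) (adjusted p = 0.0501, limma). None of 14 other genes linked to ferroptosis or selenoprotein synthesis was called (edgeR). At an unadjusted p-value at or below 0.05, 3 were higher and 1 lower (edgeR). The 1 lower was ACSL4 (log2 FC -0.23), and 1 of the 3 higher was LPCAT3 (log2 FC 0.27). Neither is a defence gene, so these counts do not give a direction for ferroptosis defence. DESeq2 called 10 of the 83 genes higher and 2 lower, where it called 764 higher and 447 lower of all 14451 genes.

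**Figure D5:**
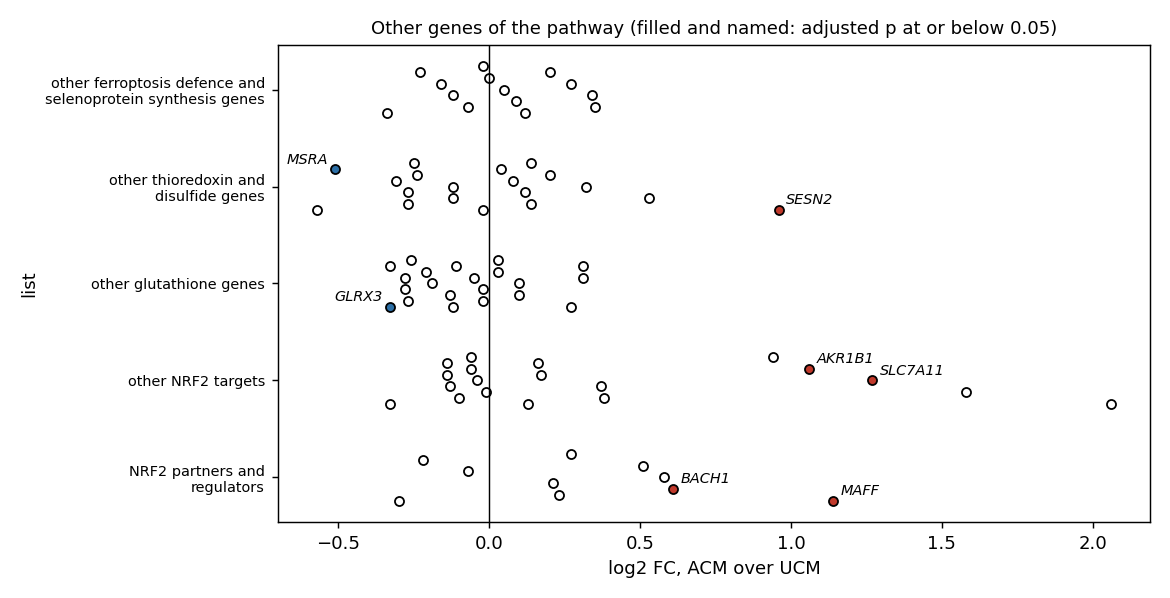
Each point is the log2 FC of ACM over UCM for one of 83 other genes of the pathways, in 5 lists, filled and named where the adjusted p-value was at or below 0.05. SLC7A11 at 1.27, MAFF at 1.14, AKR1B1 at 1.06, SESN2 at 0.96 and BACH1 at 0.61 lie to the right, GLRX3 at -0.33 and MSRA at -0.51 to the left, and the open points furthest right are AKR1C3 and AKR1C1.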

How the data were processed

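The authors polyA-enriched the RNA, used Trim Galore to trim the paired reads, STAR for alignment to GRCh38 and RSEM for quantification (versions not given in the sources used here). The deposited expected counts share ambiguous reads between genes and are not scaled for depth, and the deposited TPM values are scaled by the effective length of each gene in that library, which the authors also gave. A further table with the authors' DESeq2 comparison of ACM with UCM (log2 fold changes and p-values) was not used.

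Expected counts were rounded and tested in R 4.3.3 with edgeR 4.0.16 (filterByExpr, TMM, robust quasi-likelihood fit, medium as the sole factor), with Benjamini-Hochberg adjustment over the 14451 genes tested. CPM used library sizes of the tested genes after TMM. Of the 63140 identifiers, 61547 matched GENCODE 44 with their version, which gave symbols and positions; promoters came from RefSeq (GRCh38.p14). On simulated data for ACM against UCM, 73.6% to 79.9% of genes changed by 1 on the log2 scale (192 to 197 per draw, 5 draws) were recovered among 14219 to 14249 genes, with 9 to 19 false calls.

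Members and lists were chosen with earlier results of these data known, and 1 gene of the immune marker list is not reported here. Values in each library were given for genes at the adjusted threshold of 0.05 and the largest log2 FC of each role, and for further members after their values were seen; of the other lists, those at the adjusted threshold were named. Alternatives were DESeq2 1.42.0, RLE size factors, 2 filters (at least 1 count in total, at least 10 in every library), limma 3.58.1 on log2 TPM plus 1 or 0.1, effective lengths as offsets, a replicate block and leaving out each library, 14 in all.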

Additional observations from a re-analysis of the deposited data

How the results depend on the processing

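The count of 2 antioxidant genes higher in ACM became 5 with DESeq2, 4 with the filter of at least 1 count in total, 4 with the filter of at least 10 counts in every library and 5 with the replicate block, and ran from 1 to 4 when single libraries were left out (4 without ACM replicate 1; 1 without ACM replicate 3, UCM replicate 2 or UCM replicate 3). The count of 0 lower at the adjusted p-value was 0 in each of the 14 alternatives, and with the unadjusted p-value and a fall of at least 0.58 on the log2 scale it ran from 0 to 1 over the left-out libraries. For the other pathway genes, the 5 higher became 10 with DESeq2, 13 with the filter of at least 1 count and 8 with the block, and 2 to 7 over the left-out libraries. The 2 lower became 1 on log2(TPM + 1), 1 with effective length offsets and 0 to 6 over the left-out libraries. The causes were not tested. The same-numbered replicates correlated in their deviations by 0.376, 0.038 and 0.259 over 14451 genes. ACM replicate 3 correlated best with UCM replicate 2 (0.272), so the numbers were not taken to pair the samples. ACM replicate 1 correlated by -0.284 and -0.226 with UCM replicates 2 and 3, and ACM replicate 3 by -0.392 with UCM replicate 1. Whether the samples numbered 1 share a batch was not tested. With the block, 909 of all genes were higher and 703 lower, beside 484 and 320 without it. DESeq2 called 764 of all genes higher. The filter of at least 1 count gave 1045 higher of 25486 genes, and that of at least 10 gave 554 of 13376. Over the left-out libraries 125 to 738 of all genes were higher and 62 to 572 lower.

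Signs turned for 17 genes, none of them called. On log2(TPM + 1), log2(TPM + 0.1) and with length offsets NFE2L2 was -0.04, -0.04 and -0.01 and GCLM 0.06, 0.06 and 0.08; on the first 2 of these AIFM2 was -0.02 and -0.02 and SRXN1 -0.01 and -0.02. MGST3 was 0.00 with the filter of at least 10 counts. Over the left-out libraries the log2 FC ran from -0.06 to 0.13 for NFE2L2, -0.03 to 0.10 for KEAP1, -0.05 to 0.20 for HMOX1, -0.09 to 0.00 for GCLM, -0.00 to 0.15 for GSR, -0.02 to 0.14 for GPX4, -0.03 to 0.15 for GPX8, -0.02 to 0.15 for GSTP1, -0.00 to 0.25 for GSTO1, -0.08 to 0.07 for MGST3, -0.02 to 0.25 for TXNRD1, -0.06 to 0.02 for TXNRD2, -0.24 to 0.58 for TXNIP, -0.00 to 0.12 for PRDX6, -0.04 to 0.05 for SRXN1, -0.00 to 0.12 for SOD1 and -0.07 to 0.11 for AIFM2. With 3 libraries per group changes of small size may be missed, and GPX3, OSGIN1, TXNIP, CHAC2, AKR1C1 and AKR1C3 rest on few reads.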

Other observations

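RSEM's effective lengths differed between libraries for several of the antioxidant genes, which moves TPM but not CPM. For CHAC1 the effective length was 1060 bases in UCM replicate 1 and 1215 to 1241 in the other 5 libraries, and with these lengths as offsets its log2 FC was 1.03 (adjusted p = 0.0344, edgeR). For SOD2 it was 1547 to 1591 in ACM and 1571, 1369 and 1384 in UCM, and with offsets the log2 FC was 1.40 (adjusted p = 0.0331, edgeR). For TXNIP it ran from 1581 to 2629 without separating the groups.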
